A study of Mus musculus with 7 samples.

Results

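The genes described are 37 mouse genes of antioxidant defence, glutathione chemistry and metal binding, followed in the apex of the heart after angiotensin II. They were chosen by name, with earlier results of these data known. Every array probe whose transcript accession mapped to one of the 37 symbols was taken. All 37 were measured, out of 13697 named genes and 22344 genes and unnamed probes tested in all. Each gene was represented by 1 probe, which was well above background on all 7 arrays.

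The samples were 7 hearts of male C57BL/6 mice, 3 knockout (KO) and 4 control, each hybridised to its own 1-colour Agilent array. All 7 mice carried a floxed Mapk14 gene on both alleles. Mapk14 encodes p38α, a stress-activated kinase, and exons 2 and 3 lay between the loxP sites. In KO mice MerCreMer, a Cre recombinase that tamoxifen switches on, was driven by the cardiomyocyte promoter α-MHC, so that only cardiomyocytes were meant to lose p38α. All mice received 500 µg of hydroxytamoxifen a day for 10 days from 6 weeks of age. All then received angiotensin II, a hormone that raises blood pressure, at 1.5 mg/kg a day for 48 hours from implanted pumps, and hearts were taken at 3 months. No mouse without angiotensin II and no Cre-carrying mouse without floxed alleles was compared here, so Cre and the loss of p38α cannot be told apart. The labels number the hearts separately, and p-values measure the spread between these hearts.

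Cells hold reactive oxygen in check with enzymes that use glutathione or thioredoxin, both kept reduced with NADPH. Many cytosolic enzymes of this system are induced by the transcription factor NRF2, which KEAP1 marks for degradation until oxidants or electrophiles modify KEAP1. Mitochondria, abundant in heart muscle, have their own superoxide dismutase, thioredoxin and peroxiredoxins, encoded in the nucleus. Metallothioneins are small cysteine-rich proteins that bind zinc and copper, and their genes respond to metals, glucocorticoids and inflammation.

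Levels are log2 signals relative to the 75th percentile of the array, and differences are KO minus control on that scale, with the standard error (SE) of a limma fit over all features. A gene is said to rise or fall where its p, adjusted over all 22344 features by the Benjamini-Hochberg method, was under 0.05. Between 46.0% and 49.7% of probes were well above background per array. All arrays were on 1 slide. Slide row 1 held KO 1, control 1 and control 2, and row 2 held the other hearts. KO arrays lay in other slide columns than control arrays, so column and group cannot be told apart. Control 2 stood nearer to KO 3 (r = 0.988 over 22302 features) than to control 3 (0.976) or control 4 (0.977). The Mapk14 probe read 3.74, 3.76 and 3.71 in KO hearts, against 3.52, 3.40, 3.47 and 3.67 in control hearts, a difference of 0.22 ± 0.12 (SE, adjusted p = 0.202). Where it lies relative to the deleted exons is not given in the sources used here, so it does not check the labels. A probe for Esr1, whose ligand-binding part MerCreMer contains, was well above background on all 3 KO arrays and on 0 of 4 control arrays. Of 3 Esr1 probes, only this 1 was kept. Its level was not alike in the KO hearts: KO 3 read far above KO 1 (-0.82) and KO 2 (0.07), with an SD of 2.85 over the 3. Whether this bears on other differences between KO 3 and the other KO hearts was not tested.

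Of the 37 genes, 9 were higher and 5 lower in KO hearts, and 23 did not pass. This is 24.3% higher and 13.5% lower, beside 25.2% past the threshold over all features tested, 10.2% higher and 15.0% lower. Because the genes were chosen with earlier results of these data known, these shares do not test enrichment. The genes that rose were Hmox1, Mt2, Txnrd1, Gsr, Srxn1, Nfe2l2, Gclm, Txn1 and Gpx1, with differences from 0.58 to 2.12. Those that fell were Nqo1, Sod2, Txn2, Prdx2 and Prdx3, with differences from -0.90 to -0.55. The median over the 37 was -0.01 and that over all features -0.06. KO and control hearts did not overlap in 14 genes that were higher and 8 that were lower in KO, beside 17.6% and 21.4% of all features. The 14 that passed had the same sign within both slide rows and under every alternative processing run. None of these 14 overlapped between groups, so their sign within a slide row or with a heart left out was fixed in advance. Their calls rested on single hearts: without KO 1 or without KO 2 none of the 37 passed. Over all features the count without these hearts was 69 and 1138, against 5640 with all hearts. The counts were 12 higher and 2 lower without KO 3, 9 and 8 without control 2, 5 and 0 without control 1 or control 4, and 4 and 0 without control 3. Over all features the shares higher and lower were 11.1% and 14.6% without KO 3, and 12.7% and 18.5% without control 2. They were 5.71% and 8.91% without control 1, 3.45% and 6.48% without control 4, and 4.30% and 7.78% without control 3. With no filter on dim probes 1 passed, beside 2.90% of all features.

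**Figure D1:**
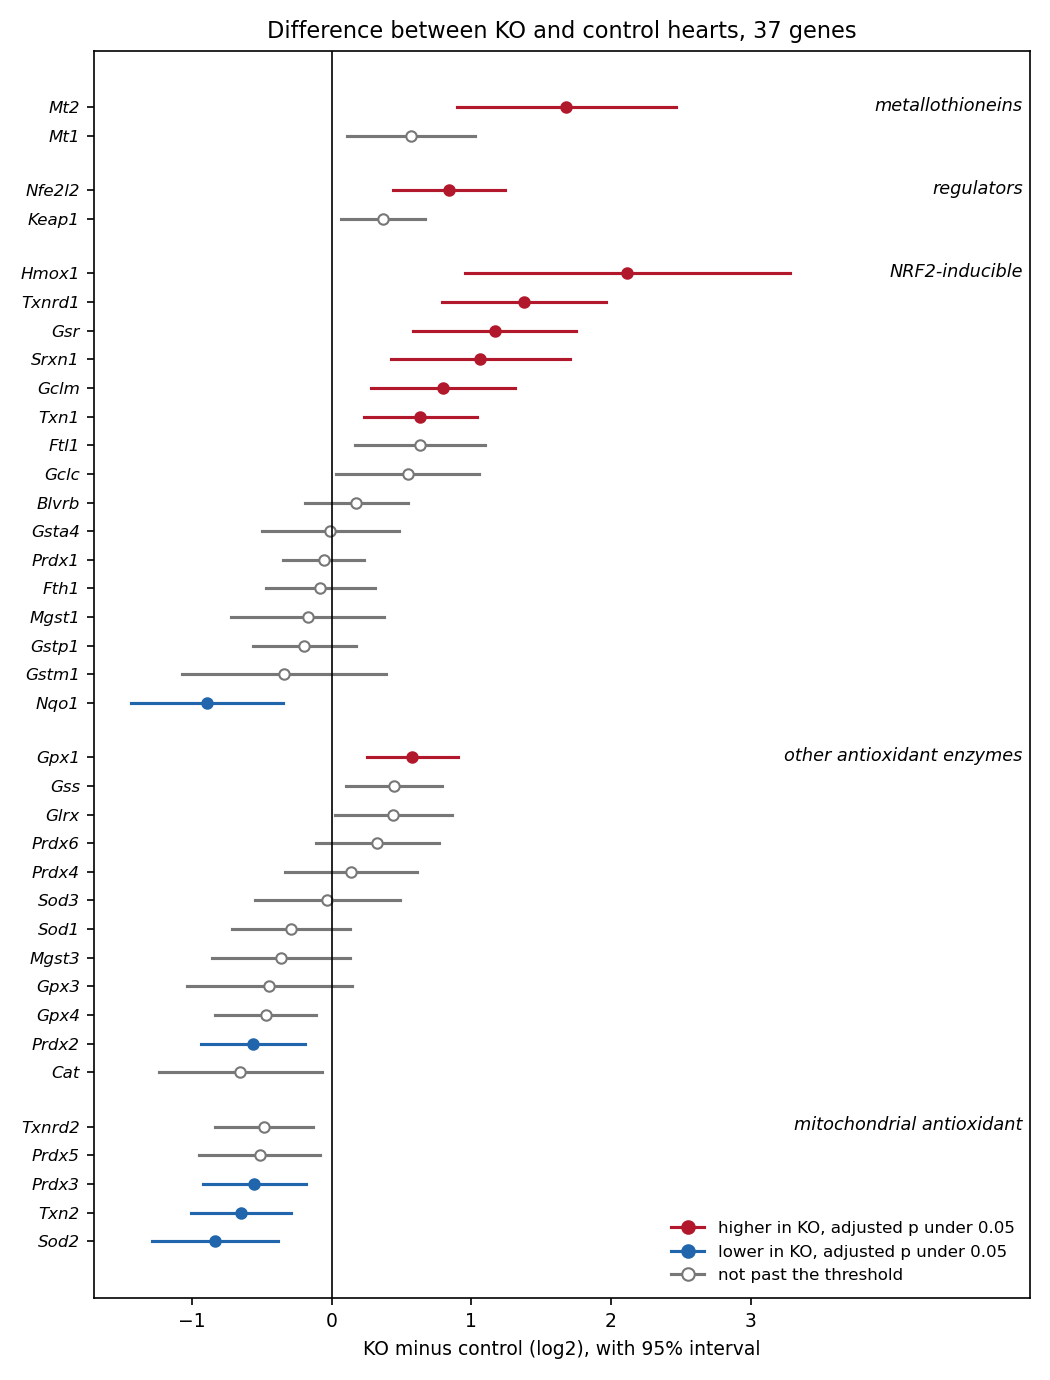
KO minus control difference of each of the 37 genes on the log2 scale, with the 95% confidence interval of the limma fit, grouped by role, with filled points for genes past the threshold and open points for the others. NRF2-inducible genes spread from -0.90 to 2.12, while all 5 mitochondrial genes lie between -0.83 and -0.49.

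Of the regulators, Nfe2l2, which encodes NRF2, rose. It read 4.58, 4.65 and 4.32 in KO hearts, against 4.01, 3.72, 3.47 and 3.50 in control hearts, a difference of 0.84 ± 0.17 (SE, adjusted p = 0.0177). Every KO heart was above every control heart. An exact two-sided permutation test on the mean difference gave p = 0.0286, the smallest the 35 splits of the hearts allow. A lack of overlap does not always give this value. For each of the mitochondrial antioxidant genes below, also without overlap, the same test gave 0.0571. The call was lost without KO 1 (adjusted p = 0.0846) and without KO 2 (0.0587). Keap1, whose product restrains NRF2, read 3.68, 3.68 and 3.38 in KO hearts, against 3.26, 3.14, 3.20 and 3.25 in control hearts. The groups did not overlap, but its difference of 0.37 ± 0.13 (SE) did not pass (adjusted p = 0.0724).

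Of the 16 genes listed as NRF2-inducible, 6 rose, 1 fell and 9 did not pass. The differences were positive for 9 and negative for 7, with a median of 0.36. Hmox1, Txnrd1, Gsr, Srxn1, Gclm and Txn1 rose, and Nqo1 fell.

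Hmox1 encodes haem oxygenase 1, which breaks haem down to biliverdin, iron and carbon monoxide. It read 5.26, 4.64 and 5.06 in KO hearts, against 3.68, 3.35, 3.05 and 1.40 in control hearts. All KO hearts lay above all control hearts, and control 4 lay well below the other controls. The difference was 2.12 ± 0.50 (SE, adjusted p = 0.0236), or 4.34-fold. It was 1.63 without control 4. The dimmer Hmox1 probe differed by 1.70, with an adjusted p of 0.0137 in a fit over all probes.

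Txnrd1, Txn1 and Srxn1 belong to the cytosolic thioredoxin system. Txnrd1 encodes the reductase that returns thioredoxin to its reduced form with NADPH. It read 5.23, 5.37 and 4.40 in KO hearts, against 3.79, 3.86, 3.42 and 3.42 in control hearts, and rose by 1.38 ± 0.26 (SE, adjusted p = 0.0148). Txn1, thioredoxin itself, read 5.46, 5.48 and 5.27 in KO hearts, against 4.97, 5.04, 4.56 and 4.51 in control hearts, and rose by 0.64 ± 0.17 (SE, adjusted p = 0.0345). Srxn1 encodes sulfiredoxin, which rescues overoxidised peroxiredoxins. It read 4.16, 4.48 and 3.29 in KO hearts, against 3.15, 2.99, 2.66 and 2.85 in control hearts, and rose by 1.06 ± 0.28 (SE, adjusted p = 0.0303). In each of these genes the lowest KO heart, KO 3, was still above the highest control. Prdx1, the cytosolic peroxiredoxin that thioredoxin reduces, ranged from 5.42 to 5.57 in KO hearts and from 5.47 to 5.72 in control hearts, and its difference of -0.06 did not pass. The dimmer Prdx1 probe differed by -0.32 without overlap, with an adjusted p of 0.135 in a fit over all probes.

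Gclm and Gsr serve glutathione. Gclm encodes the modifier subunit of glutamate-cysteine ligase, the first enzyme of glutathione synthesis. It read 0.03, 0.60 and -0.33 in KO hearts, against -0.68, -0.60, -0.57 and -0.93 in control hearts, and rose by 0.80 ± 0.22 (SE, adjusted p = 0.0375). Gsr encodes the reductase that regenerates glutathione from its disulfide. It read 3.81, 3.72 and 2.75 in KO hearts, against 2.24, 2.36, 2.17 and 2.26 in control hearts, and rose by 1.17 ± 0.25 (SE, adjusted p = 0.0195). Both genes separated the groups fully, and the control hearts lay close together. Gclc, the catalytic subunit of the same ligase, read 1.75, 2.00 and 1.05 in KO hearts, against 0.98, 0.97, 1.14 and 1.13 in control hearts. KO 3 lay among the controls, and the difference of 0.54 ± 0.22 (SE) did not pass (adjusted p = 0.102).

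Nqo1 differed from these genes in direction. It encodes a quinone reductase that is widely used as a readout of NRF2 activity. It read 0.88, 1.40 and 1.10 in KO hearts, against 2.35, 1.46, 2.16 and 2.12 in control hearts. Every KO heart was below every control, with control 2 only just above KO 2. It fell by 0.90 ± 0.24 (SE, adjusted p = 0.0308), or 1.86-fold.

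Like Prdx1 and Gclc, the 7 remaining NRF2-inducible genes did not pass. Ftl1, the light chain of the iron store ferritin, read 8.68, 8.42 and 8.72 in KO hearts, against 8.31, 8.14, 7.91 and 7.54 in control hearts. The groups did not overlap and the difference was 0.63 ± 0.20 (SE, adjusted p = 0.0535). Its dimmer probe differed by 0.68, with an adjusted p of 0.0358 in a fit over all probes. Fth1, the heavy chain, was at -0.08. The glutathione transferases Gsta4, Gstm1, Gstp1 and Mgst1 differed by -0.01, -0.34, -0.20 and -0.17, and the biliverdin reductase Blvrb by 0.17. Blvrb, Gstm1, Gstp1 and Fth1, and among the other enzymes Prdx4 and Sod3, had opposite signs in the 2 slide rows.

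The NRF2-inducible genes varied between KO hearts. KO 3 lay nearer to the control mean than KO 1 and KO 2 in Txnrd1 (0.77 above it, against 1.61 and 1.74), Gsr (0.49, against 1.55 and 1.46), Srxn1 (0.38, against 1.24 and 1.56) and Gclm (0.37, against 0.73 and 1.29). For Hmox1 the 3 KO hearts lay 2.39, 1.77 and 2.19 above the control mean, and for Ftl1 0.70, 0.44 and 0.74, so KO 3 was not the lowest there. Of the 7 NRF2-inducible genes that passed, 0 kept their call without KO 1 or KO 2. Without KO 3 the count was 6 of the 7, with control 1 left out it was 3, with control 3 left out 2 and with control 4 left out 3.

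**Figure D2:**
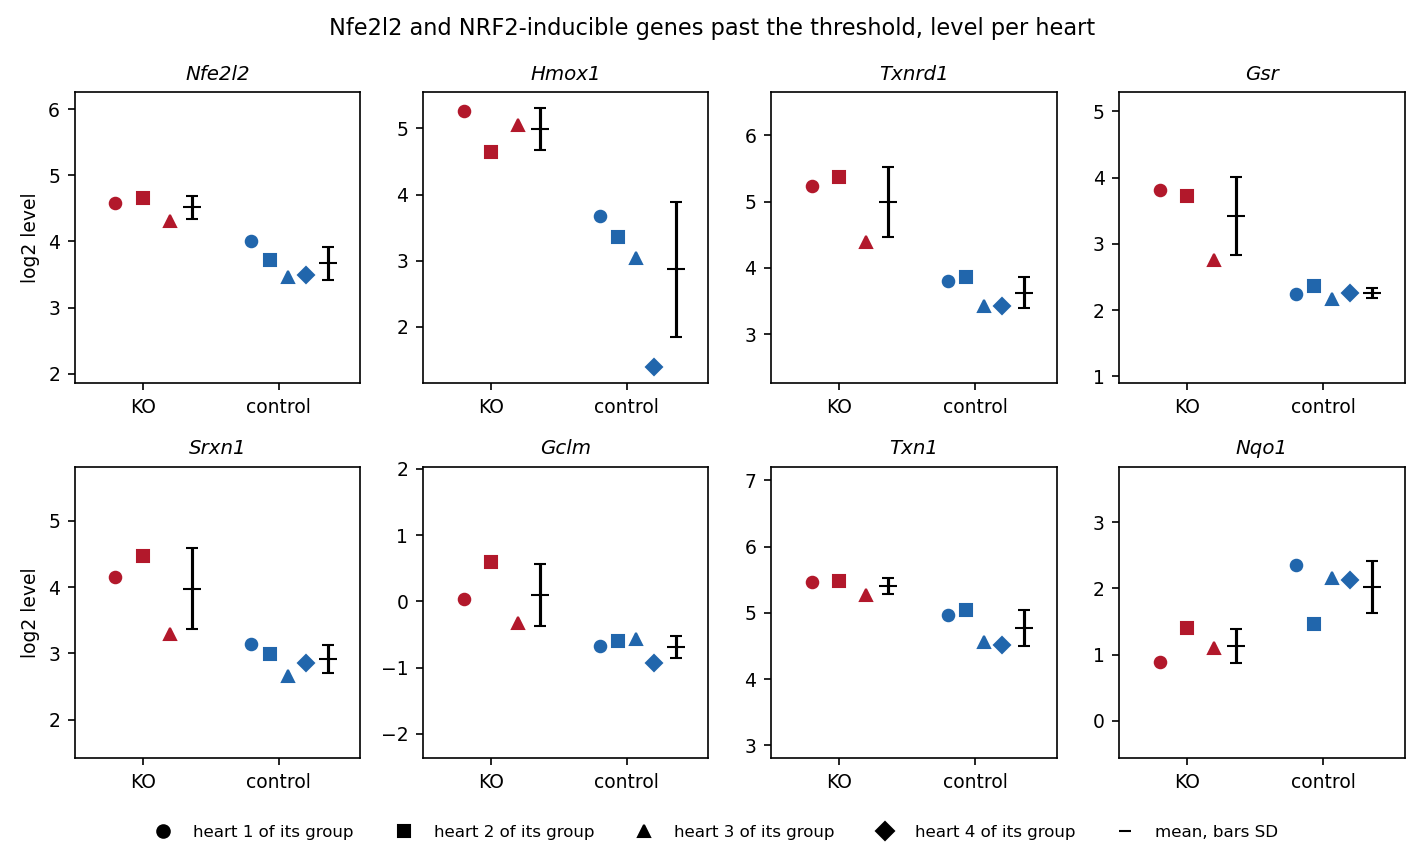
Level of Nfe2l2 and of the 7 NRF2-inducible genes past the threshold in every heart, as log2 signal relative to the 75th percentile of the array, with 3 KO hearts on the left and 4 control hearts on the right of each panel, beside the group mean with bars of 1 SD. Txnrd1, Gsr and Srxn1 show KO 1 and KO 2 well above KO 3, and Nqo1 runs the other way, from 0.88 to 1.40 in KO hearts and from 1.46 to 2.35 in control hearts.

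NRF2 acts at antioxidant response elements, so the start regions of 2 genes that rose are shown. Both are RefSeq windows of assembly GRCm38.p6, from 250 bases before to 30 bases after the transcription start, 5′ to 3′ on the strand of the gene. Capitals mark matches to the core TGACNNNGC on either strand. Both genes lie on the plus strand, Gclm at chr3:122245307-122245586 and Txnrd1 at chr10:82858956-82859235, the window with a match among 3 listed for Txnrd1.
Gclm: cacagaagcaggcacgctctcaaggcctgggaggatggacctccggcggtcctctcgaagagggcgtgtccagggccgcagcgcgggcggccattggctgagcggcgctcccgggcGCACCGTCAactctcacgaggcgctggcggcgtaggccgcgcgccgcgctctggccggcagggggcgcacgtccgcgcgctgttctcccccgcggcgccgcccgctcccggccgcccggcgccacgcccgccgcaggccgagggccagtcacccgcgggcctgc
Txnrd1: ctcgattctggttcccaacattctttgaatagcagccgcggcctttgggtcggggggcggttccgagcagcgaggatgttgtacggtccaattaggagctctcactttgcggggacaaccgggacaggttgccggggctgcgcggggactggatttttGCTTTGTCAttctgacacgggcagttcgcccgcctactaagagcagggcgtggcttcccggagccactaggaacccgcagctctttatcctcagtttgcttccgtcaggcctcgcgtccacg

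The match of Gclm began at position -134 from the start and that of Txnrd1 at -92, both on the minus strand. Of the 37 genes, 31 had a RefSeq window, and 7 of these held the core: Gclm, Mgst1, Mt2, Nfe2l2, Prdx1, Sod1 and Txnrd1. No window was available for Hmox1, Gsr, Gclc, Gsta4, Prdx6 and Sod3, so the risers Hmox1 and Gsr are absent from these counts. Some genes have several windows. Counted by window, 7 of 41 (17.1%) held the core, beside 11.5% of all 32851 windows of this length. The core was found in 4 of the 7 genes with a window that rose, in 0 of the 5 that fell and in 3 of the 19 that did not pass. Of the mitochondrial genes 0 of 5 held it. The search took only cores that begin with TGAC. The variant TGAGTCAGC, present in the windows of Srxn1, which rose, and Gstp1, which did not pass, was therefore not counted. A match describes the letters alone.

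All 5 mitochondrial antioxidant genes were lower in KO hearts with no overlap between groups, and 3 of them fell. Their differences ran from -0.83 to -0.49, with a median of -0.55. Sod2 encodes the manganese superoxide dismutase of the mitochondrial matrix. It read 7.32, 7.46 and 7.41 in KO hearts, against 8.22, 7.75, 8.48 and 8.46 in control hearts, and fell by 0.83 ± 0.20 (SE, adjusted p = 0.0228), or 1.78-fold. Txn2, mitochondrial thioredoxin, read 5.93, 5.79 and 6.02 in KO hearts, against 6.67, 6.24, 6.65 and 6.69 in control hearts, and fell by 0.65 ± 0.16 (SE, adjusted p = 0.0240). Prdx3, the matrix peroxiredoxin that mitochondrial thioredoxin reduces, read 4.11, 4.17 and 4.02 in KO hearts, against 4.64, 4.32, 4.85 and 4.80 in control hearts, and fell by 0.55 ± 0.16 (SE, adjusted p = 0.0397). In all 3 genes control 2 was the control nearest to the KO hearts.

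Txnrd2, the mitochondrial thioredoxin reductase, read 3.84, 3.72 and 3.81 in KO hearts, against 4.25, 3.98, 4.37 and 4.49 in control hearts. Its difference of -0.49 ± 0.15 (SE) lay just outside the threshold (adjusted p = 0.0511). Prdx5, a peroxiredoxin of mitochondria, peroxisomes and cytosol, read 5.53, 5.53 and 5.61 in KO hearts, against 5.97, 5.66, 6.27 and 6.39 in control hearts, with a difference of -0.52 ± 0.19 (SE, adjusted p = 0.0770). The KO hearts agreed closely in these genes, with standard deviations (SD, n = 3) from 0.04 to 0.11 over the 5 genes. The 3 calls were lost without KO 1, KO 2, control 1, control 3 or control 4, and Prdx3 also without KO 3 (adjusted p = 0.0823) and with median centring (0.0596). The difference was larger within slide row 2 than within row 1, at -1.04 and -0.66 for Sod2.

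Nuclear genes of the respiratory chain were also lower, with 18 of 20 past the threshold, 0 higher and a median of -0.75 (range -1.01 to -0.42). Without KO 1, 0 of the 18 kept the call, and without KO 2, 3 did. Among 8 cardiomyocyte markers 3 fell and 0 rose, with a median of -0.47. Their summed level was 3774 to 4469 times the 75th percentile signal in KO hearts and 4603 to 6773 times in control hearts. In whole tissue, fewer cardiomyocytes and less RNA of these genes per cardiomyocyte cannot be told apart. The part of these levels in the mitochondrial result was not tested.

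**Figure D3:**
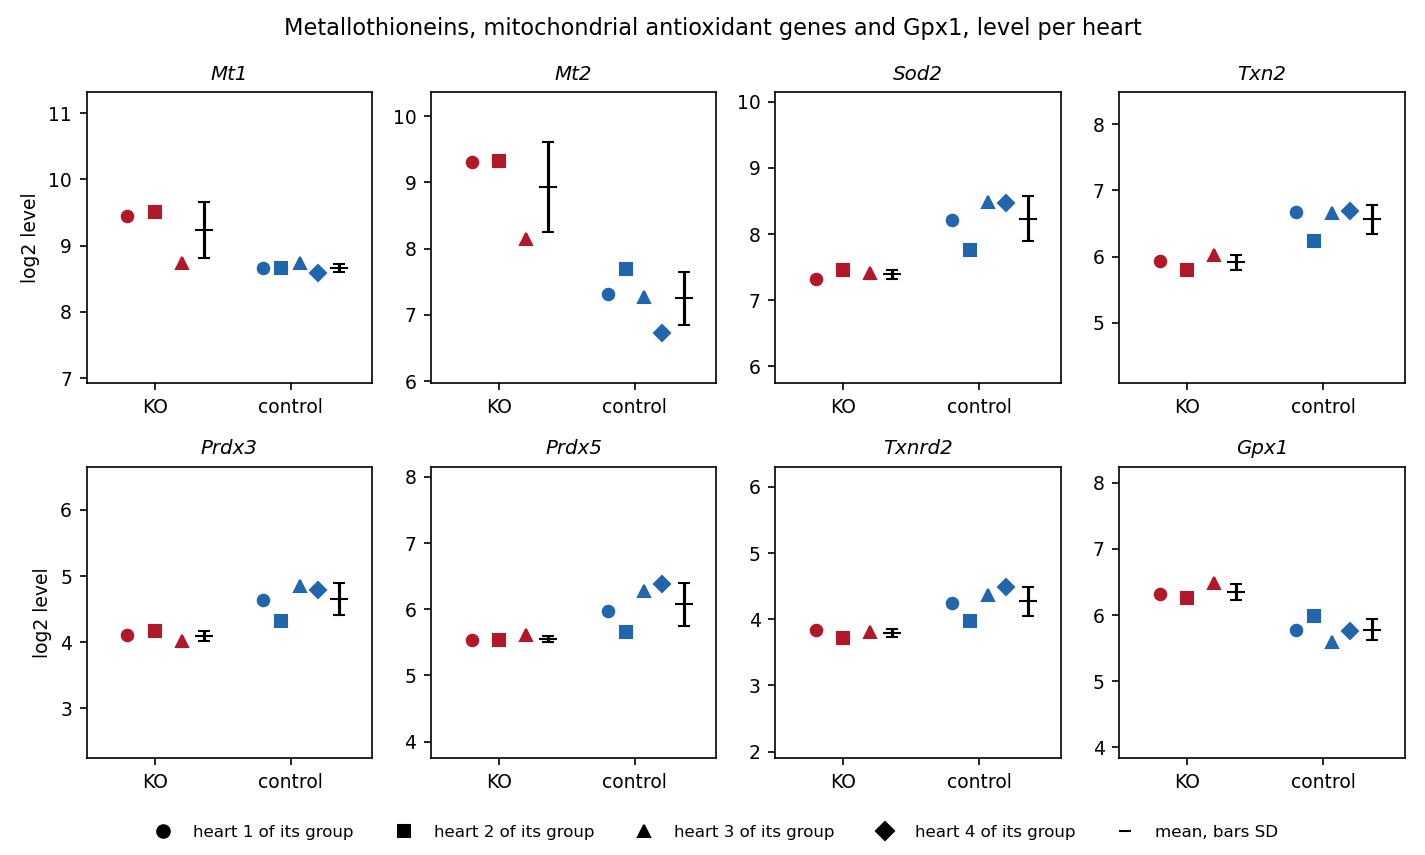
Level of both metallothionein genes, all 5 mitochondrial antioxidant genes and Gpx1 in every heart, as log2 signal relative to the 75th percentile of the array, with 3 KO hearts left of 4 control hearts, beside the group mean with bars of 1 SD. The mitochondrial genes are tightly grouped in KO hearts and lower than in every control heart, while Mt2 reads 9.31, 9.33 and 8.14 in KO hearts, all above the control hearts.

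The NRF2-inducible and the mitochondrial genes were also set against each other heart by heart. The mean of gene-centred log2 levels over the 16 NRF2-inducible genes minus that over the 5 mitochondrial genes was 0.61, 0.75 and 0.41 in KO 1 to 3, against -0.29, -0.18, -0.54 and -0.77 in control 1 to 4. The KO hearts lay above the control hearts without overlap. This had to follow, because each list mean separated the groups by itself, in opposite directions. The centring sets the 0 of this scale at the mean of the same hearts, so the signs carry no information of their own. The mitochondrial mean lay between -0.36 and -0.33 in KO hearts, against 0.25, -0.11, 0.43 and 0.47 in control 1 to 4. The NRF2-inducible mean ran from 0.08 to 0.39 in KO hearts and from -0.30 to -0.04 in control hearts.

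**Figure D4:**
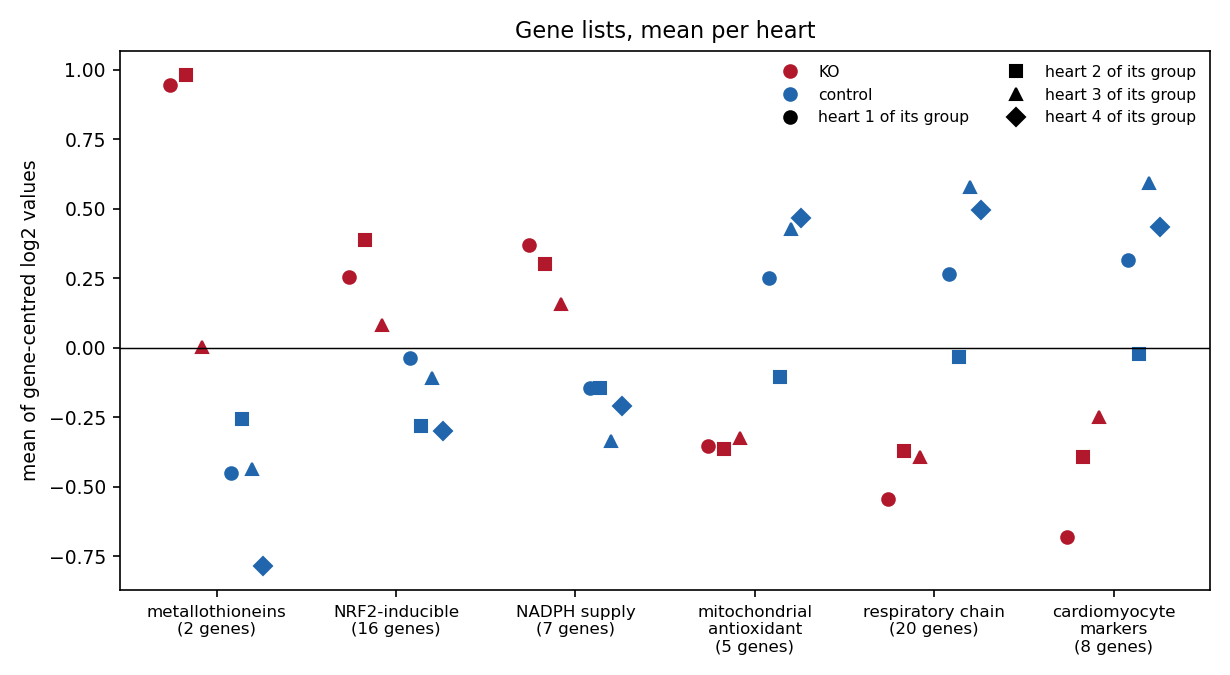
Mean gene-centred log2 level of 6 gene groups in every heart (metallothioneins, NRF2-inducible, NADPH supply, mitochondrial antioxidant, respiratory chain and cardiomyocyte markers), with KO hearts left of control hearts. The NRF2-inducible mean lies between 0.08 and 0.39 in KO hearts and between -0.30 and -0.04 in control hearts, and the mitochondrial mean between -0.36 and -0.33 in KO hearts and between -0.11 and 0.47 in control hearts.

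Of the 12 other antioxidant enzymes 1 rose, 1 fell and 10 did not pass, with a median of -0.16. Gpx1, the main cytosolic glutathione peroxidase, read 6.32, 6.26 and 6.49 in KO hearts, against 5.77, 5.98, 5.60 and 5.76 in control hearts, and rose by 0.58 ± 0.14 (SE, adjusted p = 0.0249). Prdx2, a peroxiredoxin abundant in red blood cells, read 5.86, 5.92 and 6.00 in KO hearts, against 6.36, 6.21, 6.70 and 6.70 in control hearts, and fell by 0.57 ± 0.16 (SE, adjusted p = 0.0386). The groups did not overlap in either gene, but both calls were lost with any heart left out other than control 2, and that of Prdx2 also with quantile normalization (adjusted p = 0.0502), median centring (0.0586) and in the authors' value table (0.0514). Of 5 erythroid markers 4 were measured, 3 fell and 0 rose, with a summed level of 306 to 488 times the 75th percentile signal in KO hearts and 514 to 724 times in control hearts. The haemoglobin genes Hba-a1 and Hbb-bt were at -0.74 and -0.93. Their part in the Prdx2 result was not tested.

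Among those that did not pass, 3 did not overlap between groups. Gpx4, which reduces lipid peroxides in membranes, was at -0.47 (adjusted p = 0.0600), Gss, glutathione synthetase, at 0.45 (0.0593) and Glrx, glutaredoxin, at 0.44 (0.105). Catalase (Cat), the peroxisomal enzyme that splits hydrogen peroxide, ranged from 2.16 to 2.88 in KO hearts and from 2.74 to 3.43 in control hearts, a difference of -0.65 ± 0.25 (SE, adjusted p = 0.0887). The superoxide dismutases of the cytosol and the extracellular space, Sod1 and Sod3, were at -0.29 and -0.03. The other members ranged from -0.45 for Gpx3, a secreted peroxidase, to 0.33 for Prdx6.

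Of both metallothioneins, Mt2 rose. It read 9.31, 9.33 and 8.14 in KO hearts, against 7.31, 7.69, 7.26 and 6.72 in control hearts, a difference of 1.68 ± 0.34 (SE, adjusted p = 0.0168) or 3.21-fold. KO 3 lay 0.89 above the control mean, against 2.07 and 2.08 for KO 1 and KO 2, and was still above every control. The call was lost without KO 1 (adjusted p = 0.0819) and without KO 2 (0.0567). Mt1 read 9.45, 9.51 and 8.74 in KO hearts, against 8.66, 8.67, 8.74 and 8.58 in control hearts. KO 1 and KO 2 were high, KO 3 was level with control 3 to 2 decimals, and the difference of 0.57 ± 0.20 (SE) did not pass (adjusted p = 0.0684). Without KO 3 the difference was 0.81 and passed (adjusted p = 0.00836), and it also passed with normexp (difference 0.61), with quantile normalization (0.77), in the authors' value table (0.78) and with trend and robust variance (0.57). A far dimmer Mt1 probe overlapped between groups and differed by 1.05 ± 0.86 (SE), with an adjusted p of 0.378 in a fit over all probes. Mt3, a metallothionein best known from brain, rose by 0.51 ± 0.14 (SE, adjusted p = 0.0314).

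Metallothionein genes carry metal response elements close to their start, and the same windows of Mt1 and Mt2 are shown with matches to TGCACNC or TGCGCNC on either strand in capitals. Both genes lie on the plus strand of GRCm38.p6, Mt1 at chr8:94178839-94179118 and Mt2 at chr8:94172368-94172647.
Mt1: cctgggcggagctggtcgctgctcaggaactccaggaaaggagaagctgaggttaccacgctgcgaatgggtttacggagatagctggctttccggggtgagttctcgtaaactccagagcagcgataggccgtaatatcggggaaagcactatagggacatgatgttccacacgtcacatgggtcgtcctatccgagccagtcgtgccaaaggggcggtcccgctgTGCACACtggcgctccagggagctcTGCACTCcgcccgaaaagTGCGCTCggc
Mt2: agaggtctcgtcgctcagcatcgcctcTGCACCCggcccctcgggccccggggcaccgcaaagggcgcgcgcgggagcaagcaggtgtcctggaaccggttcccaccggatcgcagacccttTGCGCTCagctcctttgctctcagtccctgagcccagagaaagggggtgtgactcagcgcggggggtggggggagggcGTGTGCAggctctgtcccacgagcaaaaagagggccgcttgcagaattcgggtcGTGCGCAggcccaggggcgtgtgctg

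Mt1 held 3 matches, beginning at positions -23, 3 and 21 from the start, and Mt2 held 4, beginning at -223, -128, -50 and 5. Over all windows, 24.1% held at least 1 match and 1.73% held 3 or more. Of the 31 members with a window 8 held this motif, in 10 of their 41 windows (24.4%), and in Gclm a match overlapped that of the antioxidant core.

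The wider pathway was followed through 71 other listed genes, of which 68 were measured, 17 rose, 12 fell and 39 did not pass, with a median of -0.04. This is 25.0% higher and 17.6% lower, beside the same 10.2% and 15.0% over all features. These lists too were chosen with earlier results known, so the shares do not test enrichment. Of 16 measured partners and other targets of NRF2, 6 rose and 2 fell, with a median of 0.22. The small MAF genes Mafk and Mafg, whose products pair with NRF2 on DNA, rose by 1.30 ± 0.30 and 0.65 ± 0.16, and Ugdh, which makes the sugar donor for glucuronidation, by 0.97 ± 0.24 (SE). Carbonyl reductase (Cbr1) and microsomal epoxide hydrolase (Ephx1) fell by 0.83 ± 0.20 and 0.90 ± 0.25 (SE). Slc7a11, the cystine transporter, stayed at background in all 7 hearts. Without KO 1, KO 2 or control 4 none of these 8 kept the call.

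Of 7 measured genes listed under NADPH supply, 4 rose and 1 fell, with a median of 0.96. The list includes Taldo1 and Tkt, whose enzymes do not themselves make NADPH. G6pdx, which opens the pentose phosphate pathway, read 2.91, 3.04 and 2.53 in KO hearts, against 1.80, 1.92, 1.46 and 1.26 in control hearts, and rose by 1.22 ± 0.21 (SE, adjusted p = 0.0130). Pgd of the same oxidative branch rose by 0.96 ± 0.19, and Taldo1 and Tkt of its non-oxidative branch by 1.11 ± 0.16 and 0.97 (SE). Idh2, the mitochondrial NADP-dependent isocitrate dehydrogenase, ranged from 7.94 to 8.08 in KO hearts and from 8.29 to 9.24 in control hearts, and fell by 0.79 ± 0.23 (SE, adjusted p = 0.0411). The cytosolic enzymes Me1 and Idh1, at -0.11 and 0.04, did not pass. Idh2 was the only mitochondrial gene of this list that was measured. Without KO 1, 0 of the 5 kept the call, and without KO 2, 3 did.

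Of 27 other glutathione and thiol enzymes 1 rose and 6 fell, with a median of -0.42. Msrb2 and Msrb1, which repair oxidised methionine, fell by 1.66 ± 0.31 and 1.29 ± 0.26, and Gstz1 by 0.90 ± 0.18 (SE). Mgst2 rose by 0.96 ± 0.25 (SE), but it was well above background on 1 of 4 control arrays and all 3 KO arrays. Of 10 genes of metal, haem and iron handling, Mt3, the metal importer Slc39a8 (0.89 ± 0.22) and the iron regulatory protein gene Ireb2 (0.74 ± 0.19) rose. The iron exporter Slc40a1 (-1.45 ± 0.40) and the constitutive haem oxygenase Hmox2 (-0.43 ± 0.13) fell, and 5 did not pass. Of 8 measured sources of superoxide and peroxide, Ncf4, Ncf1 and Cyba of the phagocyte NADPH oxidase rose by 1.55 ± 0.33, 1.45 ± 0.32 and 0.70 ± 0.15, and the mitochondrial monoamine oxidase Maob fell by 1.32 ± 0.35 (SE). Without KO 1 none of the 16 genes called in these 3 lists kept the call, and without KO 2 1 did.

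Markers of other cell types also differed between KO and control hearts. Of 8 macrophage markers 4 rose and 0 fell (median 1.16), with a summed level of 68.8 to 124 times the 75th percentile signal in KO hearts and 43.9 to 72.7 in control hearts. Of 7 measured neutrophil markers 6 rose and 0 fell (median 3.14). Of the 6, Cxcr2 and Mmp9 were above background in 0 of 4 control hearts and Fpr1 and Fpr2 in 2 of 4, so these 4 were kept in the analysis through the KO group. Cxcr2 and Mmp9 have only a bound, at least 4.69-fold and 2.40-fold higher in KO, and with these bounds the median of the list is 3.04. The summed level of the 7 was 102 to 178 in KO hearts and 114 to 177 in control hearts, and most of it was Csf3r, which was at -0.23 and did not pass. Without Csf3r the sum was 5.16 to 32.2 in KO hearts and 1.39 to 2.44 in control hearts, with no overlap. KO 3 was the lowest KO heart for 6 of the 7 neutrophil markers and the highest for Fpr1. For the macrophage markers KO 3 was the highest KO heart for 6 of 8 and the lowest for Cd14 and Msr1. Of 7 fibroblast markers 1 rose and 2 fell (median -0.71), with summed levels of 249 to 568 in KO hearts and 380 to 525 in control hearts. Of 6 endothelial markers 1 rose and 1 fell (median -0.35), with summed levels of 23.0 to 24.5 in KO hearts and 28.9 to 46.2 in control hearts. Of 5 measured hepatocyte markers 4 fell and 0 rose, with summed levels of 0.275 to 0.372 in KO hearts and 1.29 to 3.94 in control hearts. Alb and Fgg were above background in every control heart but in 0 of 3 KO hearts, and Apoa1 in none of the 7. Alb and Fgg passed the filter through the control group and have only a bound, at least 9.90-fold and 2.86-fold lower in KO, which puts the median of the list at -1.52 in place of the fitted -3.72. The part of these cell types in the antioxidant and metallothionein results was not tested.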

How the data were processed

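Total RNA from the heart apex of 7 mice was labelled with Cy3 and hybridised to Agilent arrays, per the labels. Per the file headers, the authors read the scans with Feature Extraction 11.0.1.1, and the deposited intensity covers 62976 spots an array, 3671 of them controls, on a design of build mm9. The background-subtracted processed intensity was used. The series' deposited value table holds log2 values, each probe centred on its median. Its columns rose with the centred log2 signals of their arrays (r from 0.903 to 0.983), which gives the direction, and their medians were 0 apart from 0.00790 in control 4 and -0.00212 in KO 2. The scaling behind the table is not given in the sources used here.

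Signals were turned to log2 and the 75th percentile of each array was subtracted. Control spots and outlier spots were left out. A probe stayed in if at least 3 arrays of either group had it well above background (26576 of 55681). RefSeq accessions gave 28026 probes 1 symbol, and 27655 none. Each gene took its brightest such probe by mean, leaving 22344 features, of which 22302 had a value on every array. The groups were compared in R 4.3.3 with lmFit and eBayes of limma 3.58.1, p-values were adjusted over the 22344 features (Benjamini-Hochberg), and 0.05 was the threshold. The procedure was tested on simulated data. The number of arrays limits the precision.

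The genes and lists were chosen with earlier results of these data known. Values per heart are given for each gene past the threshold, the regulators, the metallothioneins and the mitochondrial genes. Values of Gclc, Ftl1, G6pdx, Idh2 and Esr1 per heart, and the individually named markers, Me1 and Idh1, were chosen after their values were seen. Where no array of a group had a gene above background, its fold is a lower bound: the mean of the brighter group is compared with that of the dimmer, in which each array took the gene's value or, if higher, that of its dimmest probe above background. In the wider lists up to 3 genes per direction with the lowest adjusted p are named. Tkt was added to complete the 4 genes of the NADPH list that rose. Alternatives were normexp (offset 50, on median spot signals), quantile and median scaling, 2 filters, the authors' table, averaging of a gene's probes, a trended robust variance, blocks by replicate number or by slide row, and each heart left out. A further KO heart that the design text mentions was not analysed here.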

Additional observations from a re-analysis of the deposited data

Results flagged for a closer look

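Among the 4 control hearts, each of the 37 genes was checked for a heart far from the other 3 (Dixon's test at the 95% level), which chance alone flags in about 1 gene in 20. It marked 2 genes. Blvrb read 1.70 in control 1, and the nearest other control read 1.39. Txn2 read 6.24 in control 2, and the nearest other control read 6.65. The 3 KO hearts were too few for this test.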

How the results depend on the processing

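The 14 genes past the threshold kept their direction in every alternative. None of them overlapped between groups, so with a heart left out or in the fits with blocks this was fixed in advance. No heart left out moved a fold by over 1.5 times, the largest move being 1.41 times for Hmox1 without control 4. The counts moved more. Leaving out 1 heart gave 69 to 6970 features past the threshold, with 0 to 12 of the 37 genes higher and 0 to 8 lower. With no filter on dim probes 1415 of 48809 features passed, with 1 gene higher and 0 lower. The number that fell was 3 with median centring, 8 with trend and robust variance and 9 with slide row as a block. In these settings 11.6%, 16.4% and 21.6% of all features were lower, so the count of genes moved with the share over all features. The labels name no pairing of hearts by replicate number. Same-numbered hearts deviated from their group means with correlations of 0.18, -0.22 and -0.20, and differently numbered hearts with correlations from -0.32 to 0.39. Centring within so few hearts pushes such correlations toward a mix of signs, so they do not decide whether hearts were paired. With the replicate block 9 features passed, and 0 of the 37 genes were higher and 0 lower. Control 4 has no partner and drops out of that fit. The medians of the NRF2-inducible and mitochondrial genes kept their sign throughout, and with 1 heart left out lay between 0.28 and 0.39 and between -0.67 and -0.49.

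Genes near 0 that did not pass changed sign, and the cause was not tested. Prdx1 was at 0.013 with quantile normalization, 0.039 with median centring and 0.014 in the authors' table. Fth1 was at 0.17, 0.014 and 0.16 in these, and at 0.016 without control 3. Sod3 was at 0.028, 0.065 and 0.030 in these, at 0.00022 with slide row as a block, 0.25 without KO 2 and 0.0090 without control 1. Gsta4 was at 0.085 with median centring and 0.076 with the replicate block, and ranged from -0.17 to 0.13 with 1 heart left out. With 3 and 4 hearts a group, a gene that did not pass is not shown to be equal in both.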
